A study of Mus musculus with 12 samples.

Results

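The integrated stress response was followed here through 10 genes: Atf4, Atf5, Ddit3, Trib3, Ppp1r15a, Chac1, Sesn2, Asns, Psat1 and Phgdh. They were taken by symbol from the 16516 gene symbols listed in the deposited tables of normalised counts. All 10 were listed in each of the 4 tables, and all 10 passed the filter on low values in every comparison. RNA-seq had been made from mouse bone marrow-derived macrophages (BMMs), which are macrophages grown in culture from marrow progenitors. The 4 groups were MGMT KO cells given DMXAA, MGMT KO cells given DMSO, WT cells given DMXAA and WT cells given DMSO, with 3 libraries in each. DMXAA is an agonist of mouse STING, the adaptor that links DNA sensing to interferon production; it was given at 10 mg/ml as the series text writes the dose, for 24 h, and DMSO is its solvent. MGMT takes alkyl groups off guanine in damaged DNA. The wild type is labelled WTfl/fl, which reads as floxed alleles; the labels used here name no Cre driver for the knockout and no mouse for each library. The p-values below therefore measure the spread between these libraries, which may be technical.

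In the integrated stress response, any of several kinases phosphorylates the translation initiation factor eIF2. General protein synthesis then falls, while a few messages with upstream open reading frames, Atf4 among them, are translated more. The ATF4 protein, often with its partner CHOP (the product of Ddit3), switches on genes for amino acid supply, tRNA charging, redox control and, when stress lasts, cell death. Among the kinases are PERK, which responds to unfolded protein in the endoplasmic reticulum (ER), GCN2, which responds to uncharged tRNA, and PKR, an interferon-induced sensor of double-stranded RNA. RNA-seq reads message levels only: neither eIF2 phosphorylation nor protein was measured in these libraries.

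Positions are on the mm10 build, from GENCODE vM21. The transcription factors are Atf4 at chr15:80255184-80257541 (+), Atf5 at chr7:44812256-44816658 (-) and Ddit3 at chr10:127290774-127296288 (+). The feedback and stress effectors are Trib3 at chr2:152337422-152344032 (-), Ppp1r15a at chr7:45522916-45526268 (-), Chac1 at chr2:119351229-119354381 (+) and Sesn2 at chr4:132492032-132510501 (-). The amino acid synthesis genes are Asns at chr6:7675169-7693254 (-), Psat1 at chr19:15904678-15947337 (-) and Phgdh at chr3:98313170-98339990 (-). Exons of Atf5 share 82 bases with Nup62 and Il4i1 on the other strand, those of Ddit3 share 68 with Mars (named Mars1 in the tables), and those of Ppp1r15a share 12 with Tulp2. The library kit keeps strand, but the strand setting of the counting is not given in the sources used here, so reads in these short overlaps cannot be assigned to a gene.

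The promoters are shown because ATF4 and its partners bind a short composite element, the C/EBP-ATF response element. Its core was searched as TGATGNAA on both strands in RefSeq promoter windows (GRCm38.p6, 250 bases before to 50 after a start site), of which the 10 genes have 12. The core was present in windows of 3 genes, Chac1, Asns and Trib3, that is in 3 of 12 windows, against 3.97% of all 32851 windows and 2.53% of the 15699 windows of genes listed in the tables. The matches are printed below from 5′ to 3′ on the gene's own strand, with the core in capitals. In Chac1 and Trib3 the core reads on the opposite strand, so its letters appear as the reverse complement.
Chac1, chr2:119351029-119351076 (+): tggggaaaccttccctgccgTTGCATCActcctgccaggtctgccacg
Asns, chr6:7693210-7693252 (-): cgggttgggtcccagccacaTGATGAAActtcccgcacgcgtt
Trib3, chr2:152344028-152344057 (-): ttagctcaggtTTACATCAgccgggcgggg
Counting from 0 at the start site, the core covers bases -193 to -186 in Chac1, bases -23 to -16 in Asns and bases 14 to 21 in Trib3. For the other 7 genes, no match says only that these letters are not in these windows.

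The libraries held between 79482003 and 98135869 reads in listed genes, with 94083827 to 98135869 in KO DMXAA cells, 79864160 to 92354581 in KO DMSO cells, 85098456 to 92532099 in WT DMXAA cells and 79482003 to 93939818 in WT DMSO cells. Mgmt averaged 46.7 ± 13.4 normalised counts in KO cells and 99.9 ± 14.8 in WT cells under DMXAA, and 142 ± 31.5 in KO cells and 250.2 ± 18.1 in WT cells under DMSO (SD, n = 3 each): it was lower in KO under both treatments but not absent, and the deleted part of the gene is not named in the labels. The interferon-stimulated gene Isg15 averaged 26136 ± 627 normalised counts under DMXAA against 351 ± 34.6 under DMSO in KO cells, and 34874 ± 918 under DMXAA against 656 ± 66.7 under DMSO in WT cells. All 8 macrophage markers were listed in every group, and their summed level was 9396 to 9486 RPM (reads scaled to the library's total) in KO DMXAA, 16736 to 17543 in KO DMSO, 11477 to 11719 in WT DMXAA and 20594 to 21044 in WT DMSO. The 8 did not move alike. Fcgr1 had a median of 1194 in KO DMXAA, 108 in KO DMSO, 1162 in WT DMXAA and 144 in WT DMSO. Cd68 had 1755, 1937, 1807 and 1764 in the same order. Adgre1, Csf1r, Itgam, Mertk, Lyz2 and Cd14 were lower under DMXAA in both genotypes. The genotypes were furthest apart in Lyz2, with medians of 2134 in KO DMXAA, 6838 in KO DMSO, 4045 in WT DMXAA and 10836 in WT DMSO. Sums over the listed markers of other cells stayed at or below 5.57 RPM. Of these, the 5 dendritic cell markers summed to 3.80 to 4.88 in KO DMXAA and 0.113 to 0.214 in KO DMSO, and to 3.82 to 4.25 in WT DMXAA and 0.109 to 0.352 in WT DMSO. Of these 5, Xcr1 alone made 3.80 to 4.84 in KO DMXAA and 3.82 to 4.18 in WT DMXAA. Siglech and Cd209a were at 0 in KO DMXAA and were not listed for WT DMXAA. Of the 6 neutrophil markers, Elane was not listed at all and Mpo was not listed under DMXAA. The listed ones summed to 0.632 to 5.4, and the 5 stromal markers to 0.130 to 5.57, highest in a KO DMSO library. B cell, T and NK cell, erythroid and mast cell markers summed to at most 0.348, with the 3 listed T and NK cell markers at 0 in KO DMXAA. The part of these marker levels in the results below was not tested. In such cultures, fewer cells of a type and less RNA per cell cannot be told apart.

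The 10 genes differed widely in level. In RPKM, which scales reads to exon length and to the library's total, the mean level in KO DMXAA cells was 87.6 ± 2.11 for Atf4, 78.4 ± 1.81 for Ddit3, 31.0 ± 1.44 for Atf5 and 9.28 ± 0.708 for Asns (SD, n = 3). Trib3 at 3.82, Sesn2 at 3.46, Ppp1r15a at 3.18 and Phgdh at 1.43 followed, and Chac1 at 0.482 and Psat1 at 0.452 came last. The ranges of Sesn2 and Ppp1r15a overlapped, as did those of Chac1 and Psat1. In KO DMSO cells the same scale gave 32.5 for Atf4, 13.4 for Atf5, 11.8 for Ddit3, 4.57 for Asns, 4.01 for Ppp1r15a, 3.29 for Sesn2, 1.46 for Trib3, 1.37 for Phgdh, 1.33 for Psat1 and 0.137 for Chac1. Here Ppp1r15a overlapped with both Asns and Sesn2, and Trib3, Phgdh and Psat1 overlapped with each other.
In WT DMXAA cells the order was Atf4 at 78.2, Ddit3 at 57.5, Atf5 at 15.5, Asns at 5.92, Sesn2 at 3.46, Ppp1r15a at 3.35, Trib3 at 2.21, Phgdh at 0.962, Psat1 at 0.533 and Chac1 at 0.400, with only the ranges of Sesn2 and Ppp1r15a overlapping among neighbours. In WT DMSO cells Atf4 stood at 33.2, Ddit3 at 14.7, Atf5 at 8.87, Ppp1r15a at 3.46, Asns at 3.18, Sesn2 at 2.75, Psat1 at 2.08, Phgdh at 0.890, Trib3 at 0.408 and Chac1 at 0.209. In that group the Asns range, 2.33 to 3.92, overlapped those of Ppp1r15a, Sesn2 and Psat1. Atf4 was thus the highest of the 10 in all 4 groups, and Ddit3 was above Atf5 in 3 of them but below it in KO DMSO.

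**Figure D1:**
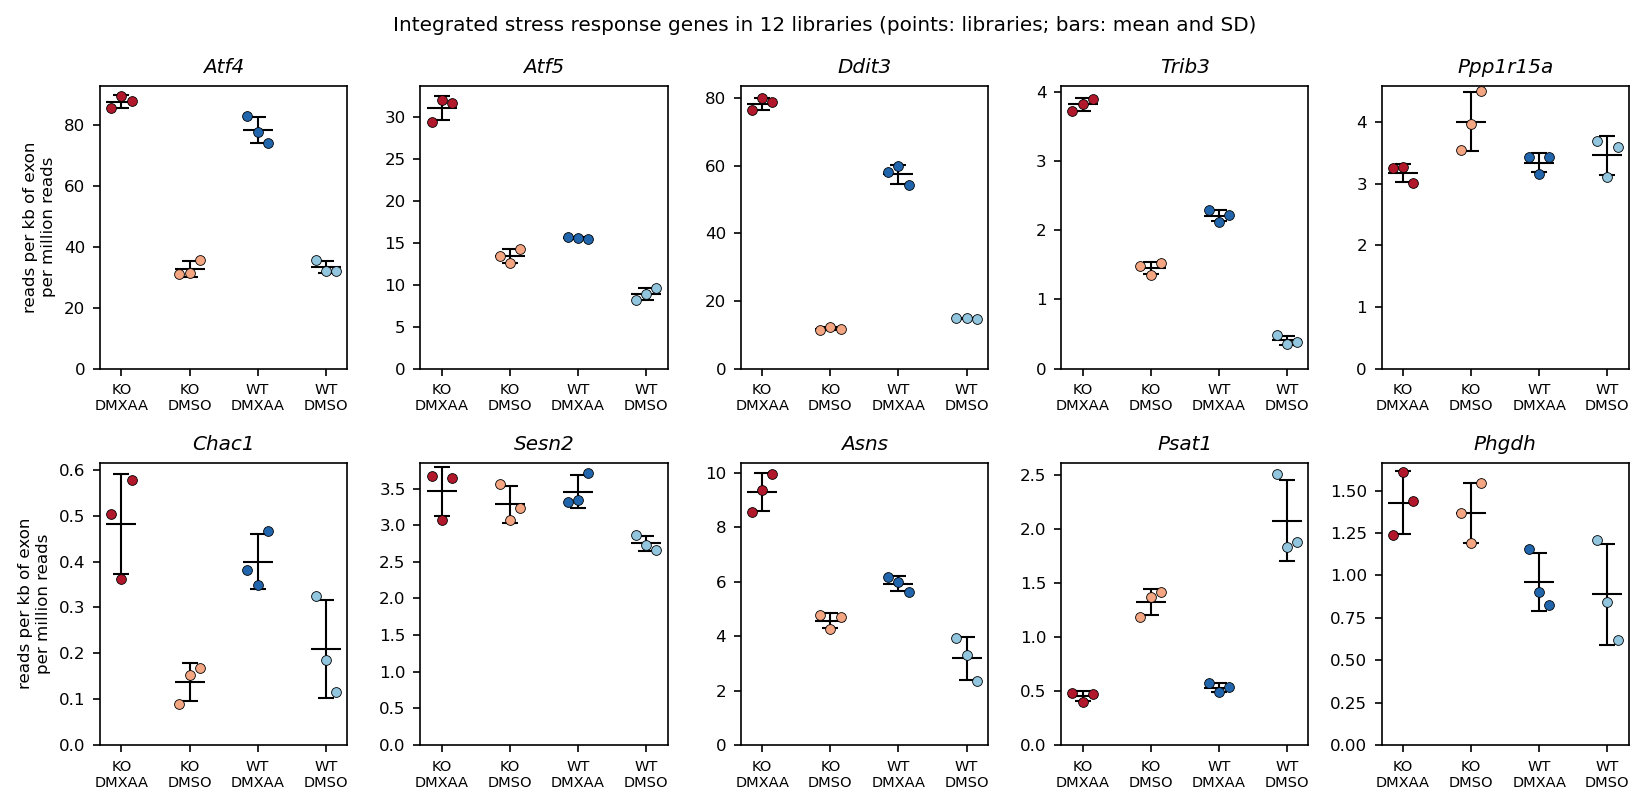
Level of each of the 10 genes in RPKM (reads scaled to exon length and library total; vertical axes, each from 0) in KO DMXAA, KO DMSO, WT DMXAA and WT DMSO cells; points are libraries, and bars are the mean and SD of 3. Ddit3 stood at 78.4 under DMXAA and 11.8 under DMSO in KO cells, and at 57.5 under DMXAA and 14.7 under DMSO in WT cells, while Psat1 was lower under DMXAA in both genotypes; these levels are scaled to the total of each library, on which scale DMXAA differences are smaller or more negative than on the deposited scale used in the tests.

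DMXAA was compared with DMSO in each genotype within that genotype's own deposited table. Values below are normalised counts in libraries 1, 2 and 3 of each group; a gene was called when limma's Benjamini-Hochberg adjusted p over all genes tested was under 0.05, and each ± in a log2 difference is its standard error. In KO cells 8 of the 10 genes were higher under DMXAA, 1 was lower and 1 was not called, where 33.7% of the 12704 genes tested were called higher and 32.9% lower. In WT cells 8 were higher, 1 was lower and 1 was not called, where 31.7% of 12752 genes were called higher and 31.1% lower. The median log2 difference of the 10 genes was 1.5 in KO and 1.19 in WT cells, against -0.00 in both for all genes tested. The 10 genes and the lists below were chosen with earlier results of these data known. Counts and medians set beside all genes, here and below, are therefore descriptions and not tests of the set.

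The 3 transcription factors rose under DMXAA in both genotypes, and Ddit3 changed most of the 10 genes in KO cells. Atf4, the central factor of the response, had 20762, 22054 and 21653 normalised counts in KO DMXAA cells, against 5791, 5763 and 6748 in KO DMSO cells. This was a 3.53-fold rise (log2 difference 1.82 ± 0.063, adjusted p = 2.11e-09). In WT cells Atf4 had 18919, 18048 and 17183 under DMXAA, against 6642, 5902 and 5944 under DMSO, a 2.93-fold rise (1.55 ± 0.060, adjusted p = 9.87e-09). Every DMXAA library stood well above every DMSO library in both genotypes.
Atf5, a related factor whose message also carries upstream open reading frames, had 6034, 6662 and 6584 in KO DMXAA cells, against 2128, 1961 and 2278 in KO DMSO cells (3.03-fold, log2 difference 1.60 ± 0.067, adjusted p = 9.47e-09). In WT cells it had 3035, 3049 and 3014 under DMXAA, against 1289.9, 1376 and 1502 under DMSO (2.19-fold, 1.13 ± 0.068, adjusted p = 2.90e-07). The DMXAA libraries differed from each other far less than from the DMSO libraries, most clearly in WT cells.
Ddit3, which encodes CHOP, had 13502, 14308 and 14096 in KO DMXAA cells, against 1539, 1664 and 1622 in KO DMSO cells, an 8.68-fold rise (3.12 ± 0.051, adjusted p = 5.62e-12). The WT libraries had 9685, 10105 and 9153 under DMXAA, against 2010.2, 1979 and 1962 under DMSO, a 4.86-fold rise (2.28 ± 0.054, adjusted p = 2.39e-10). The groups were far apart in both genotypes relative to the spread within them.

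Among the feedback and stress effectors, Trib3 and Chac1 rose most, Sesn2 rose less and Ppp1r15a differed by 0.06 in KO and 0.27 in WT cells on the log2 scale as deposited. Trib3, a pseudokinase that binds ATF4 and dampens its activity, had 818, 850.5 and 867 in KO DMXAA cells, against 252, 226 and 260.4 in KO DMSO cells (3.43-fold, log2 difference 1.78 ± 0.093, adjusted p = 5.21e-08). In WT cells it had 472, 445 and 465 under DMXAA, against 81.7, 58.5 and 64.3 under DMSO (6.73-fold, 2.75 ± 0.149, adjusted p = 1.33e-07). Trib3 was the member with the largest rise in WT cells, and its WT DMSO libraries were the lowest of all 12 in RPKM.
Chac1, an enzyme that breaks down glutathione, was the least abundant member in normalised counts. It had 85.2, 62.1 and 98.8 in KO DMXAA cells, against 11.6, 19.5 and 22.2 in KO DMSO cells (4.48-fold, 2.16 ± 0.315, adjusted p = 1.42e-04). For WT cells the values were 60.7, 56.4 and 75.1 under DMXAA, against 42.1, 23.7 and 14.8 under DMSO (2.52-fold, 1.33 ± 0.360, adjusted p = 8.79e-03). The groups did not overlap, but the WT DMSO libraries spread widely.
Sesn2, a leucine-binding protein that restrains mTORC1, had 1316, 1115 and 1323 in KO DMXAA cells, against 984, 836 and 905 in KO DMSO cells (1.38-fold, 0.46 ± 0.092, adjusted p = 1.25e-03). In WT cells it had 1119.7, 1143 and 1269 under DMXAA, against 787, 740.5 and 729 under DMSO (1.56-fold, 0.64 ± 0.078, adjusted p = 5.19e-05). The KO call was lost when libraries were rescaled to the same total (0.07, adjusted p = 0.492).
Ppp1r15a encodes GADD34, which brings protein phosphatase to eIF2 and so closes the feedback loop. It had 987, 1004 and 923 in KO DMXAA cells and 828, 913 and 1069 in KO DMSO cells, so the groups overlapped (0.06 ± 0.097, adjusted p = 0.609); with libraries rescaled to the same total it was called lower instead (-0.33, adjusted p = 9.37e-03). WT libraries read 981, 915 and 992 under DMXAA and 859, 711 and 831 under DMSO (1.21-fold, 0.27 ± 0.090, adjusted p = 2.33e-02), a call that was lost on rescaling to the same upper quartile (0.16, adjusted p = 0.142) or the same total, where the sign turned (-0.05, adjusted p = 0.650). No direction of Ppp1r15a under DMXAA therefore held under every scaling tried. Its WT call was also lost in 3 of 6 fits that each left out 1 library (log2 difference 0.19 to 0.32).

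The amino acid synthesis genes split: Asns rose and Psat1 fell in both genotypes, and Phgdh passed the test in KO cells alone on the deposited scale. The difference of the Phgdh responses did not pass its own test (-0.02, adjusted p = 0.983). Asns, which makes asparagine from aspartate, had 2409.6, 2674 and 2842 in KO DMXAA cells, against 1035, 912 and 1033 in KO DMSO cells (2.66-fold, log2 difference 1.41 ± 0.081, adjusted p = 1.10e-07). In WT cells it had 1635, 1609 and 1513 under DMXAA, against 848, 703 and 502 under DMSO (2.37-fold, 1.24 ± 0.158, adjusted p = 7.15e-05). Every DMXAA library exceeded every DMSO library of its genotype.
Psat1, the aminotransferase of serine synthesis, had 211, 177 and 211 in KO DMXAA cells, against 400.1, 458 and 487 in KO DMSO cells, and was 2.24-fold lower (-1.16 ± 0.122, adjusted p = 1.25e-05). WT cells gave 236, 206 and 223 under DMXAA, against 846, 609.8 and 631 under DMSO, 3.09-fold lower (-1.63 ± 0.135, adjusted p = 3.10e-06). It was the one gene of the 10 that fell, and it fell in both genotypes.
Phgdh, which catalyses the entry step of the same pathway, had 318, 418 and 373 in KO DMXAA cells, against 269, 232 and 309.9 in KO DMSO cells (1.37-fold, 0.45 ± 0.142, adjusted p = 1.70e-02). In WT cells it had 279, 221 and 202 under DMXAA and 238, 164 and 121 under DMSO, which overlapped (0.47 ± 0.231, adjusted p = 0.103). The KO call was lost on rescaling to the same upper quartile (0.33, adjusted p = 0.0647) or the same total (0.06, adjusted p = 0.684), and without KO DMSO library 2 or KO DMXAA library 2. In WT cells Phgdh passed the test once WT DMSO library 1 was left out (0.72, adjusted p = 0.0111).

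**Figure D2:**
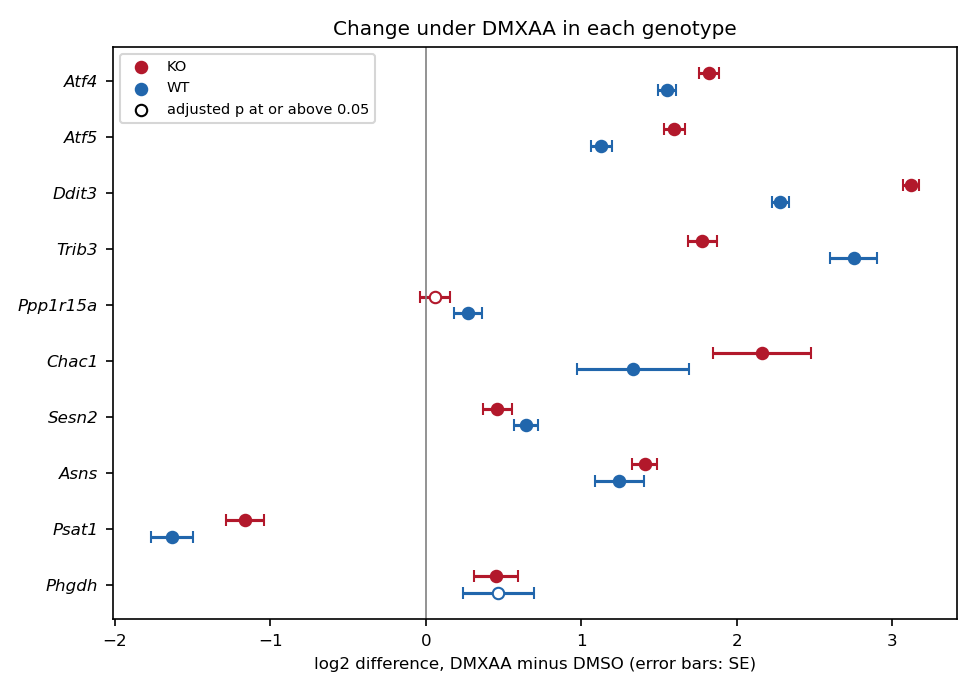
Log2 difference of DMXAA minus DMSO for each gene (horizontal axis), in KO cells and WT cells; points are limma estimates with standard errors, and open points have an adjusted p at or above 0.05. Ddit3 lay at 3.12 in KO and 2.28 in WT cells, Trib3 at 1.78 in KO and 2.75 in WT cells, and Psat1 alone was called lower.

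The scaling of the libraries bears on all DMXAA differences. On the deposited scale 50.6% of the calls in KO cells and 50.5% of those in WT cells were in the higher direction. Once libraries had equal upper quartiles these shares were 38.6% in KO and 39.2% in WT cells, and once they had equal totals 20.3% in KO and 22.3% in WT cells. The median of all genes moved by -0.39 in KO and -0.32 in WT cells (log2) with equal totals, and by -0.13 in KO and -0.11 in WT cells with equal upper quartiles. The 10 genes moved by like amounts. Atf4, Atf5, Ddit3, Trib3, Chac1 and Asns stayed higher, and Psat1 lower, with a called difference under each scaling in both genotypes.

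**Figure D3:**
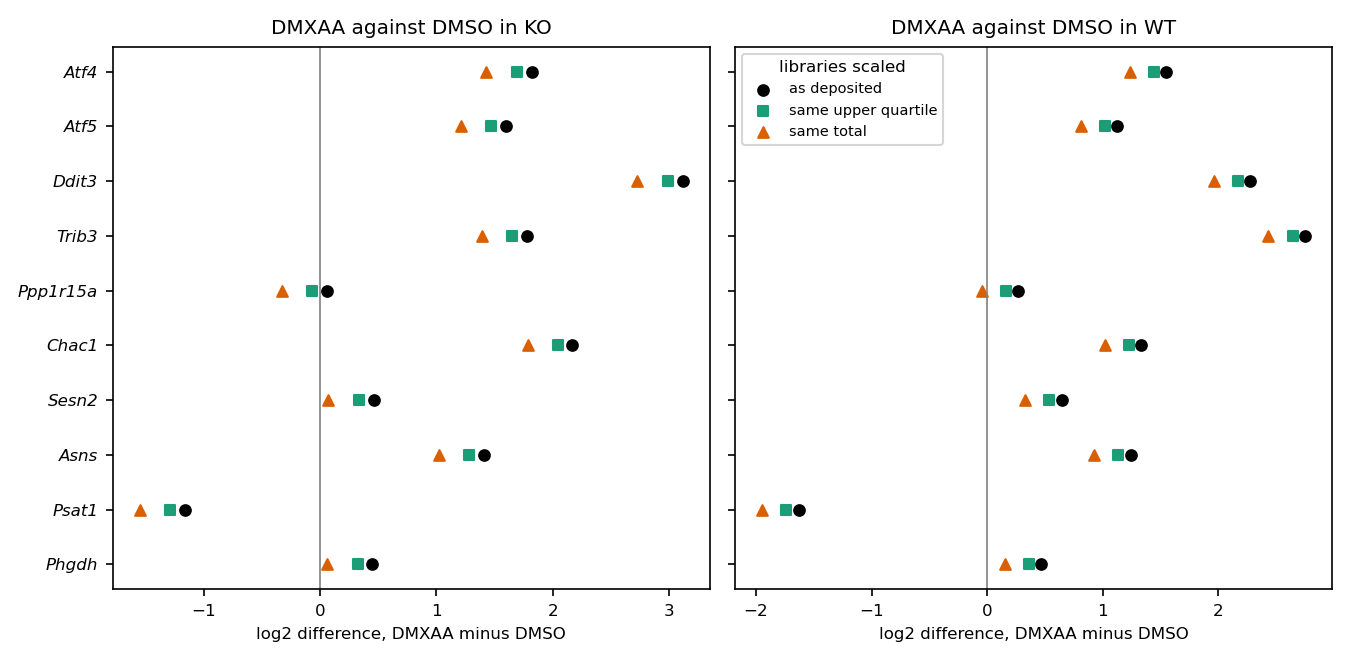
Log2 difference of DMXAA minus DMSO for each gene in KO cells (left) and WT cells (right), with libraries scaled as deposited, to the same upper quartile or to the same total. With the same total the genes move by about -0.39 in KO and -0.32 in WT cells; Ppp1r15a crosses 0 in both genotypes, and no other gene does.

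KO was next compared with WT cells under DMXAA, within the deposited table of the 6 DMXAA libraries; its scale differs from that of the tables used above. Of the 10 genes 6 were higher in KO cells and the other 4 were not called, where 10.7% of the 12499 genes tested were called higher and 10.8% lower. The median log2 difference was 0.39 for the 10 genes and -0.00 for all genes tested. Of the 3 factors, Atf5 differed most: it had 5408, 5955 and 5887 in KO cells, against 2806, 2803 and 2778 in WT cells, 2.05-fold higher (log2 difference 1.04 ± 0.051, adjusted p = 1.10e-06). Ddit3 had 12103, 12788 and 12603 in KO cells, against 8955, 9288 and 8436 in WT cells, 1.41-fold higher (0.49 ± 0.046, adjusted p = 4.88e-05). Atf4 differed least of the factors, with 18610.3, 19713 and 19360.3 in KO cells, against 17493, 16588 and 15836 in WT cells (0.21 ± 0.045, adjusted p = 7.43e-03). For each factor the 3 KO libraries lay above the 3 WT libraries.
Trib3 had 733, 760.2 and 775 in KO cells, against 437, 409 and 428 in WT cells, 1.78-fold higher (0.83 ± 0.077, adjusted p = 4.35e-05). Asns had 2159.8, 2390.5 and 2541 in KO cells, against 1511, 1479 and 1394 in WT cells, 1.61-fold higher (0.69 ± 0.070, adjusted p = 7.31e-05). Phgdh had 285, 374 and 334 in KO cells, against 258, 203 and 186 in WT cells, 1.53-fold higher (0.62 ± 0.148, adjusted p = 1.29e-02). The Phgdh call was lost without KO DMXAA library 2 (adjusted p = 0.0524). Chac1 (0.29, adjusted p = 0.421), Sesn2 (0.04, adjusted p = 0.780) and Ppp1r15a (-0.03, adjusted p = 0.817) overlapped between the genotypes. Psat1 had 189, 159 and 189 in KO cells and 218, 189.8 and 206 in WT cells, and although the ranges did not overlap it was not called (-0.19, adjusted p = 0.330).

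Under DMSO, KO and WT cells were compared within the table of the 6 DMSO libraries. Here 3 of the 10 genes were higher in KO cells, 2 were lower and 5 were not called, where 7.04% of the 12814 genes tested were called higher and 9.58% lower. The median log2 difference was 0.21 for the 10 genes and 0.01 for all genes tested. Trib3 differed most, with 274, 247 and 283 in KO cells, against 91.5, 65.7 and 72.0 in WT cells, 3.5-fold higher (log2 difference 1.81 ± 0.164, adjusted p = 3.60e-05). Atf5 had 2315, 2141 and 2474 in KO cells, against 1445, 1543 and 1680.3 in WT cells, 1.48-fold higher (0.57 ± 0.081, adjusted p = 6.54e-04). These 2 genes, and Asns as given next, were called higher in KO cells both under DMXAA and under DMSO.
Asns had 1126, 996 and 1122 in KO cells, against 949, 789 and 562 in WT cells (1.44-fold, 0.53 ± 0.156, adjusted p = 4.07e-02). That call kept below the threshold in only 1 of 6 fits that each left out 1 library, the highest adjusted p being 0.122; without WT DMSO library 3 the difference was 0.32 and without WT DMSO library 1 it was 0.70. Ddit3 ran the other way from its DMXAA difference, with 1674, 1818 and 1762 in KO cells, against 2252, 2220.0 and 2195 in WT cells, 1.27-fold lower (-0.34 ± 0.064, adjusted p = 3.92e-03). Psat1 had 435, 500.5 and 528 in KO cells, against 948, 684 and 706 in WT cells, 1.58-fold lower (-0.66 ± 0.131, adjusted p = 5.49e-03). Both lower genes had all 3 KO libraries below all 3 WT libraries.
Atf4 did not pass the test under DMSO, with 6302, 6293 and 7329 in KO cells and 7441, 6621 and 6650.5 in WT cells (-0.06, adjusted p = 0.653). Nor did Ppp1r15a (0.18, adjusted p = 0.295), Sesn2 (0.23, adjusted p = 0.0960) or Chac1 (-0.54, adjusted p = 0.449). Phgdh had 293, 253 and 337 in KO cells and 266, 184 and 135 in WT cells (0.64, adjusted p = 0.0683), and it passed the test without WT DMSO library 1 (0.89, adjusted p = 8.17e-03).
The WT DMSO libraries spread most for these genes. The median coefficient of variation over the 10 genes was 6.79% in KO DMXAA, 8.66% in KO DMSO, 4.88% in WT DMXAA and 13.8% in WT DMSO cells. In WT DMSO cells it reached 51.7% for Chac1, 34.0% for Phgdh and 25.4% for Asns, and library 1 was the highest of the 3 for 9 of the 10 genes, Atf5 being the exception. The like values over all genes were not computed, so whether this spread is particular to these genes was not tested.

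**Figure D4:**
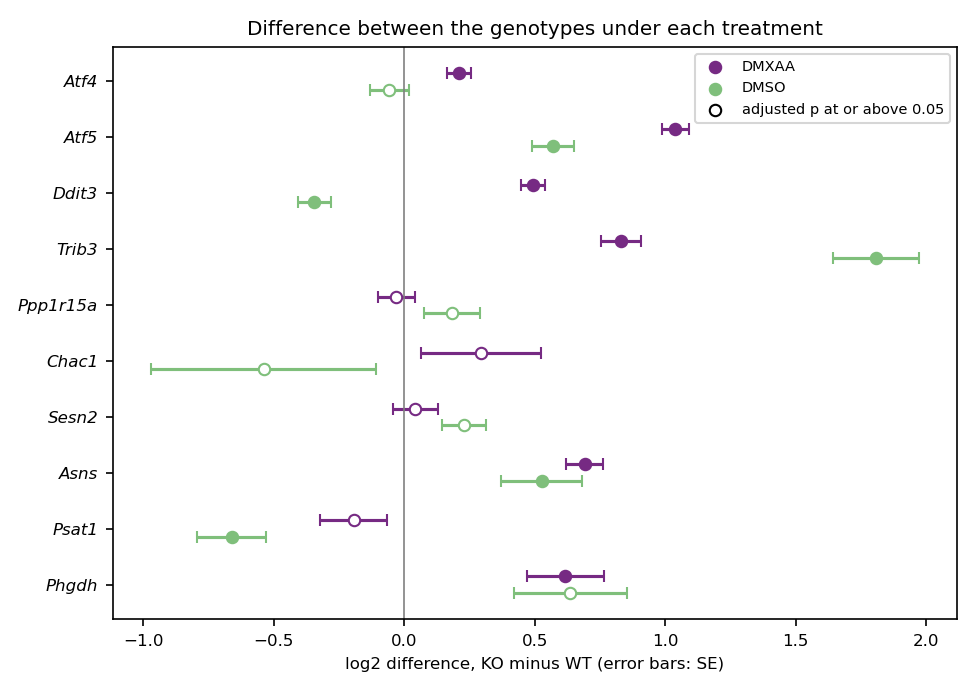
Log2 difference of KO minus WT for each gene (horizontal axis) under DMXAA and under DMSO; points are limma estimates with standard errors, and open points have an adjusted p at or above 0.05. Trib3 lay at 0.83 under DMXAA and 1.81 under DMSO, Atf5 at 1.04 under DMXAA and 0.57 under DMSO, and Ddit3 at 0.49 under DMXAA and -0.34 under DMSO.

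Whether DMXAA changed a gene by a different factor in KO than in WT cells was tested directly, as the KO response minus the WT response over all 12 libraries. Of the 10 genes 2 had a higher response in KO cells, 1 had a lower one and 7 were not called, where 5.37% of the 12729 genes tested were called higher and 3.24% lower. The median was 0.22 for the 10 genes and 0.00 for all genes tested. These differences share their libraries with the comparisons above and are no separate evidence. Ddit3 had the larger response in KO cells by 0.84 ± 0.070 on the log2 scale (95% interval 0.68 to 0.99, adjusted p = 1.07e-05), so that its fold change in KO cells was 1.79 times that in WT cells. For Atf5 the difference was 0.47 ± 0.095 (adjusted p = 6.76e-03), a ratio of folds of 1.38. Trib3 had the smaller response in KO cells, by -0.98 ± 0.168 (adjusted p = 2.25e-03); its WT fold was 1.97 times its KO fold, with KO cells higher than WT cells under both treatments. These 3 calls were kept in 12 of 12 fits that each left out 1 library.
Atf4 differed by 0.27 (adjusted p = 0.0940), Psat1 by 0.47 (adjusted p = 0.154), Chac1 by 0.83 (adjusted p = 0.374), Ppp1r15a by -0.21 (adjusted p = 0.400), Sesn2 by -0.19 (adjusted p = 0.418), Asns by 0.16 (adjusted p = 0.705) and Phgdh by -0.02 (adjusted p = 0.983). These p-values do not show that the responses were alike. Atf4 passed the test without KO DMSO library 3 (0.34, adjusted p = 1.96e-02). Over all genes 62.4% of the calls were in the higher direction on the deposited scale, 61.0% with equal upper quartiles and 39.2% with equal totals.

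The rest of the pathway was read from lists of other genes, in which each count is of genes tested and the scale is the deposited one. On the deposited scale each count stands against the shares over all genes tested. For DMXAA these were 33.7% higher and 32.9% lower in KO cells, and 31.7% higher and 31.1% lower in WT cells. For KO against WT they were 10.7% higher and 10.8% lower under DMXAA, and 7.04% higher and 9.58% lower under DMSO. Counts with the same total stand against other shares, in which lower calls prevail. With the same total 9856 of 12743 genes tested were called for DMXAA in KO cells, and 20.3% of these calls were higher. In WT cells 9147 of 12777 were called, and 22.3% of these calls were higher. These percentages are shares of calls, not of genes tested as on the deposited scale above. The like shares of calls on the deposited scale were 50.6% in KO and 50.5% in WT cells. Of the 4 eIF2 kinases, 2 rose and 2 fell under DMXAA in both genotypes; with libraries rescaled to the same total 1 was higher and 3 lower in KO cells, and 1 higher and 2 lower in WT cells. Eif2ak2, which encodes PKR, averaged 6247 ± 122 under DMXAA against 1518 ± 63.8 under DMSO in KO cells (log2 difference 2.04), and 6799.6 ± 57.5 under DMXAA against 1816 ± 93.8 under DMSO in WT cells (1.91). Eif2ak3, which encodes PERK, fell by 0.81 in KO and by 0.75 in WT cells, and Eif2ak4, which encodes GCN2, fell by 0.35 in KO and by 0.38 in WT cells. Eif2ak1, the haem-regulated kinase, rose by 0.22 in KO and 0.35 in WT cells, but with the same total it was lower in KO cells (-0.17) and not called in WT cells (0.03). Between genotypes Eif2ak2 was lower in KO cells under DMXAA (-0.17) and under DMSO (-0.30).
Of 10 genes for eIF2 and eIF2B subunits and phosphatase partners, 7 rose and 2 fell in KO cells, and 6 rose and 2 fell in WT cells. Ppp1r15b, the constitutive relative of Ppp1r15a, was among those that rose, by 1.11 in KO and 0.99 in WT cells. With the same total 5 were higher and 4 lower in KO cells, and 4 higher and 3 lower in WT cells. Of 4 paralogs of the members that were tested, 1 rose and 2 fell in KO cells and 2 rose and 2 fell in WT cells; with the same total the single higher call in KO cells was lost. Sesn1, a p53-linked relative of Sesn2, fell to 2283 ± 71.2 under DMXAA, against 12779.9 ± 247 under DMSO, in KO cells (-2.48), and to 2672 ± 122 under DMXAA, against 12908 ± 309 under DMSO, in WT cells (-2.27), opposite to Sesn2 on the deposited scale.

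Of 7 partner factors, 3 rose and 1 fell in each genotype, and with the same total 3 were higher and 4 lower in each. Nupr1, a stress-induced chromatin protein under ATF4 and CHOP, averaged 5878 ± 234 under DMXAA against 402 ± 50.4 under DMSO in KO cells (log2 difference 3.87), and 2414 ± 91.1 under DMXAA against 315 ± 52.7 under DMSO in WT cells (2.95). Its response was larger in KO cells by 0.92 (adjusted p = 1.81e-03). Under DMXAA, Nupr1 was higher in KO than in WT cells by 1.24. Atf3, another stress-induced factor, rose by 0.83 in KO and 0.65 in WT cells.
Of 10 other ATF4 target effectors, 2 rose and 7 fell in each genotype, with a median of -1.21 in KO and -0.44 in WT cells; with the same total 8 were lower in each genotype. Gadd45a, a growth arrest gene, fell by 1.84 in KO and by 1.35 in WT cells. Klhl24 fell by 0.93 in KO and by 0.52 in WT cells. Gdf15, a secreted stress hormone, averaged 178 ± 5.84 under DMXAA against 510.0 ± 78.2 under DMSO in KO cells (-1.5); in WT cells it averaged 229 ± 45.5 under DMXAA and 290.2 ± 20.2 under DMSO and was not called (-0.36, adjusted p = 0.0610), but it was called lower with equal upper quartiles (-0.46, adjusted p = 0.0209) and with the same total (-0.67, adjusted p = 2.43e-03). Bbc3, a cell death gene, rose by 0.29 in KO cells and by 0.76 in WT cells, but the KO call was lost with equal upper quartiles (0.16) and its sign turned with the same total (-0.10). Of these 10 genes, 3 had a response called more negative in KO than in WT cells: Gdf15 (-1.15), Gadd45a (-0.48) and Klhl24 (-0.41). For that difference of responses, 3.24% of the 12729 genes tested were called lower and 5.37% higher.

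Amino acid supply genes were mixed. Of 9 transporters, 4 rose and 3 fell in each genotype (with the same total, 4 higher and 3 lower in KO cells and 4 higher and 4 lower in WT cells), with Slc3a2 up by 1.08 in KO and 0.87 in WT cells, Slc7a1 by 1.52 in KO and 0.98 in WT cells, and Slc7a5 by 1.84 in KO and 1.42 in WT cells. Slc3a2 and Slc7a5 encode the chains of the LAT1 exchanger, and Slc7a1 a carrier of cationic amino acids. The glutamine carrier Slc1a5 fell by 0.63 in KO and by 0.90 in WT cells. The serine, one-carbon, proline and cysteine enzymes gave 2 higher and 3 lower of 9 in KO cells, and 1 higher and 2 lower of 8 in WT cells; with the same total 1 was higher and 4 lower in each. Mthfd2, a mitochondrial folate enzyme, averaged 3387 ± 233 under DMXAA against 621 ± 14.5 under DMSO in KO cells (2.44), and 2613 ± 91.1 under DMXAA against 660.3 ± 95.8 under DMSO in WT cells (1.99). Its pathway neighbours ran the other way: Mthfd1l fell by 0.95 in KO and by 1.37 in WT cells, and Shmt2, the mitochondrial serine enzyme, fell by 0.51 in KO and by 0.61 in WT cells.
In the aminoacyl-tRNA synthetase list, which also holds the tRNA exporter Xpot, 11 of 13 genes were higher and the other 2 not called in KO cells, and 10 higher and 2 lower in WT cells; with the same total 7 were higher and 4 lower in KO cells, and 6 higher and 5 lower in WT cells. The alanyl enzyme gene Aars rose by 1.72 in KO and 1.45 in WT cells, the cysteinyl enzyme gene Cars by 1.49 in KO and 1.43 in WT cells, and the methionyl enzyme gene Mars1 by 0.80 in KO and 0.90 in WT cells. Under DMXAA 9 of the 13 were higher in KO than in WT cells, with a median of 0.22, and the other 4 were not called. Those with the smallest p were Eprs (0.38) and Sars (0.28), the glutamyl-prolyl and seryl enzyme genes, and the exporter Xpot (0.36). Under DMSO 1 of 13 was higher, Mars1 (0.20), and the others were not called.

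Of 17 genes of the IRE1 and ATF6 arms of the ER unfolded protein response, 8 rose and 6 fell in KO cells and 6 rose and 6 fell in WT cells, near the shares over all genes tested; with the same total 3 were higher and 11 lower in KO cells, and 3 higher and 12 lower in WT cells. The ER chaperone gene Hspa5 rose by 0.60 in KO and 0.57 in WT cells, and Syvn1, an ER ubiquitin ligase gene, by 0.70 in KO and 0.59 in WT cells, while Herpud1, a degradation factor of the ER, fell by 1.29 in KO and by 0.96 in WT cells. Between genotypes, Herpud1 was higher in KO cells under DMXAA (0.83) and under DMSO (1.16), as was Xbp1, the IRE1-spliced factor, by 0.34 under DMXAA and 0.33 under DMSO. Of 6 genes in a mitochondrial stress list, 2 fell in KO cells and 1 in WT cells, with the others not called. Dele1 and Oma1, the relay genes of that list, were among those not called (-0.18 and 0.002 in KO cells). With the same total 6 of the list were lower in KO and 5 in WT cells. On the deposited scale the chaperone gene Hspd1 fell by 0.22 in KO and by 0.24 in WT cells, and Lonp1 fell by 0.15 in KO cells.

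**Figure D5:**
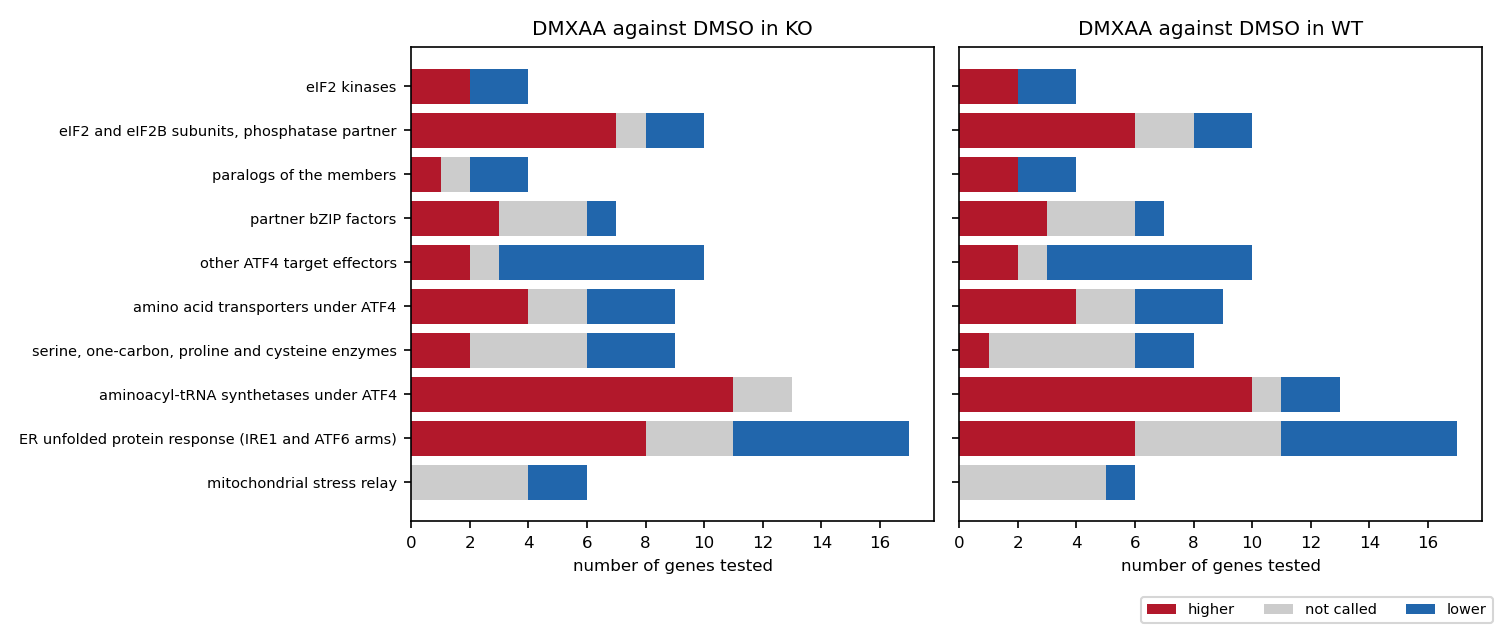
Number of genes tested in each list that were called higher, not called or called lower under DMXAA against DMSO, in KO cells (left) and WT cells (right), on the deposited scale. Of the 13 genes in the aminoacyl-tRNA synthetase list, which includes the tRNA exporter Xpot, 11 were higher in KO and 10 in WT cells, and of 10 other ATF4 target effectors 7 were lower in both.

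Genes with the pattern nearest to a member were found by the Euclidean distance over the 4 log2 differences (DMXAA against DMSO in each genotype, KO against WT under each treatment), among 9808 genes (9809 for Chac1), for the 7 members that changed by at least 1 in any of them. The distances rest on the same 12 libraries. Nearest to Atf4 were Aars at 0.14, Slc7a5 at 0.17 and Pim1 at 0.24. Nearest to Atf5 were Asns at 0.41, Adam33 at 0.43 and H2bc21 at 0.68, and nearest to Asns were H2bc21 at 0.27, Atf5 at 0.41 and Adam33 at 0.43. Ddit3 had Mid1 at 0.28, Pde7b at 0.34 and Tgfbi at 0.43 nearest to it. Chac1 had Flrt2 at 0.10, Sass6 at 0.22 and Oas1c at 0.31, and Psat1 had Tubb6 at 0.16, with Dusp6 and Myo10 both at 0.39. The log2 differences of Chac1 had standard errors of 0.23 to 0.43, so distances of this size do not single out its neighbours. Trib3 had no close neighbour on this measure, the nearest being Gpr141 and F10, both at 1.08, and Dnhd1 at 1.48.

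The authors' deposited table of each comparison gave the same call for all 10 genes as limma did here, that is in 40 of 40 cases at an adjusted p under 0.05 in that table.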

How the data were processed

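RNA-seq was made from 12 libraries of mouse bone marrow-derived macrophages, 3 in each of 4 groups, grouped by the genotype and treatment labels. Per the submitters' processing notes, HISAT2, featureCounts and the mm10 build were used; the sources used here give no versions. The authors deposited a normalised signal per gene, read as gene counts divided by a size factor for each library, in 4 tables of 6 libraries (2 by genotype, 2 by treatment). The authors also deposited a table for each comparison with log2 fold changes and p-values, whose headers have the DESeq2 form. Of the deposited values, 100% were whole multiples of 1 read per library within 0.01, and both tables holding a library gave the same reads; RPM and RPKM levels, depth and edgeR and DESeq2 alternatives used these reads.

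Each comparison was fitted within its own table with limma 3.58.1 in R 4.3.3 (trended empirical Bayes, two-sided) on log2(normalised count + 1), for genes with a mean of at least 10. Fold changes are on that scale, which understates the change of low genes. Genes were called at a Benjamini-Hochberg adjusted p under 0.05 over all genes tested. The interaction was fitted over 12 libraries on the DMSO and DMXAA tables. The other methods were edgeR 4.0.16 (quasi-likelihood, TMM) and DESeq2 1.42.0; edgeR called 8475 genes in KO and 8003 in WT cells for DMXAA, 2652 for KO against WT under DMXAA, 2127 under DMSO and 1123 for the interaction, DESeq2 called 8327, 7908, 2859, 2419 and 1493 in the same order, and limma 8462, 8007, 2686, 2129 and 1095. Depth gives a floor of 0.0306 to 0.0377 RPM for a count of 0 (3 reads), for counting error only. Fits were tested on simulated data. Coordinates came from GENCODE vM21, where 97.3% of symbols matched 1 position; Ddit3 has 2 overlapping entries, which were merged. The 10 genes and all lists were chosen with earlier results of these data known. Beyond the 10 genes, list genes were named by the smallest p in each comparison (up to 3) and, where 5 or fewer were called, among those called.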

Additional observations from a re-analysis of the deposited data

Results flagged for a closer look

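The DMXAA responses of 3 of the 10 genes differed between KO and WT cells by the test of that difference. Ddit3 had a response 0.84 higher on the log2 scale in KO than in WT cells (0.836045 before rounding). Atf5 had a response 0.47 higher in KO than in WT cells (0.468907 before rounding). Trib3 had a response that differed by -0.98 (-0.975405 before rounding), lower in KO than in WT cells. With libraries rescaled to the same total the differences were 0.77 for Ddit3, 0.40 for Atf5 and -1.04 for Trib3. The Trib3 level was higher in KO cells under both treatments, so that the smaller fold stands beside a higher starting level. Groups of 3 libraries are too small for a test of single outlying libraries.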

How the results depend on the processing

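The number of the 10 genes called moved by less than 1.5 times under every alternative run: pseudocounts of 0.5 and 5, no filter on low values, edgeR, DESeq2, both rescalings, the replicate block and leaving out each library. Without 1 library the count ran from 8 to 9 for DMXAA against DMSO in KO cells, 8 to 10 in WT cells, 5 to 6 for KO against WT under DMXAA, 4 to 6 under DMSO and 3 to 4 for the difference of responses. Of 780 single-gene values, 745 kept direction and call, 18 lost the call, 4 gained one and 13 changed sign. The sign changed for Ppp1r15a under DMXAA in KO cells (-0.33 with the same total, -0.0669 with equal upper quartiles, and -0.0258 to 0.158 over fits without 1 library) and in WT cells (-0.0463 with the same total), and for Ppp1r15a in KO against WT under DMXAA (-0.0685 to 0.0063 over fits without 1 library). It changed for Sesn2 in KO against WT under DMXAA with the same total (-0.0018). In the difference of responses it changed for Phgdh (0.0301 with edgeR, 0.0289 with DESeq2, and -0.27 to 0.22 over fits without 1 library) and for Asns (-0.0061 to 0.372 over fits without 1 library). With the same total, Ppp1r15a was called lower in KO cells, where it had not been called, and lost its higher call in WT cells; both follow the shift of all genes under that scaling. The other sign changes were of uncalled values that stayed uncalled, and their cause was not tested. The call of Asns in KO against WT under DMSO was lost with edgeR (adjusted p = 0.0516) and with no filter (adjusted p = 0.0570). For KO against WT, 49.7% of calls were higher under DMXAA (43.2% with the same upper quartile, 34.3% with the same total) and 42.4% under DMSO (40.7% with the same upper quartile, 50.9% with the same total).

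The replicate numbers of the titles are shared across groups. Deviations from the group means correlated at -0.098 to 0.122 for same-numbered libraries over the 4 comparisons, and at -0.165 to 0.163 for other pairs. For DMXAA against DMSO in WT cells the same-numbered pairs had 0.036, 0.053 and 0.122, against -0.072 to 0.024 for the others. With groups of 3, such values cannot decide whether same-numbered libraries share a culture or a batch. With the title number as a replicate block, 9 members were called for DMXAA in KO cells, 10 in WT cells, 6 for KO against WT under DMXAA, 5 under DMSO and 3 for the difference of responses. The added WT call was Phgdh (adjusted p = 0.0262). Library numbers run from 1 to 3 under DMXAA and from 2 to 4 under DMSO. A block on the library number therefore kept only the libraries numbered 2 and 3, fewer than any other fit used. It gave 9 in KO and 8 in WT cells. Chac1 and Phgdh had the widest spread of the 10 genes in the WT DMSO libraries. With 3 libraries in a group, their KO against WT differences under DMSO did not pass the test. Asns, next in spread, passed it in the main fit but in only 1 of 6 fits that each left out 1 library.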
